A study of Mus musculus with 11 samples.

Results

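The genes described here are 10 members of the NRF2 antioxidant response, chosen by symbol from the 32287 genes counted in each library: Nfe2l2, Keap1, Slc7a11, Gclc, Gclm, Txnrd1, Srxn1, Prdx1, Hmox1 and Nqo1. Each of the 10 symbols occurred once, so all 10 were found. Their levels were read in microglia, macrophages, endothelial cells (EC), smooth muscle cells (SMC) and pericytes gated by marker genes. Single-cell RNA sequencing of cerebrovascular cells had been done on 6 R182C-TgN3 mice and 5 WT-TgN3 mice, 1 droplet library per mouse. Both groups carried a human NOTCH3 transgene beside the mouse Notch3 gene, with the R182C variant that causes the small vessel disease CADASIL in R182C-TgN3 mice (line Tg350, genotype TgN3 R182C) and the wild-type sequence in WT-TgN3 mice (line Tg100, genotype TgN3). All mice were untreated, and each genotype is a single transgenic line. R182C-TgN3 mice 1, 2 and 3 were 9 months old and mice 4, 5 and 6 were 6 months old. WT-TgN3 mice 1, 2 and 3 were 6 months old and mice 4 and 5 were 9 months old, and both sexes were present in both genotypes. Batch numbers stand for the 4 dates the labels give as batch. Batch 1 held R182C-TgN3 mice 1 and 2 with WT-TgN3 mice 4 and 5, batch 2 held R182C-TgN3 mouse 3 alone, batch 3 held R182C-TgN3 mice 4 and 5 with WT-TgN3 mice 1 and 2, and batch 4 held R182C-TgN3 mouse 6 with WT-TgN3 mouse 3. No batch held both ages, so age and batch cannot be told apart. Vessel fragments had been pulled out with beads against CD31, an endothelial surface protein, before they were digested to single cells, so microglia and macrophages in these libraries are those that came along with the vessels.

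NRF2, the protein of Nfe2l2, is a transcription factor that KEAP1 holds in the cytoplasm and delivers to the CUL3 ubiquitin ligase for degradation. Oxidants and electrophiles modify cysteines of KEAP1, NRF2 then accumulates, pairs with a small MAF protein and binds antioxidant response elements near its target genes. Its activity is set largely by protein stability, so the mRNA of Nfe2l2 does not by itself report it. Targets include the cystine importer Slc7a11, the catalytic subunit Gclc and the modifier subunit Gclm of glutamate-cysteine ligase, the thioredoxin reductase Txnrd1, the sulfiredoxin Srxn1, the peroxiredoxin Prdx1, the haem oxygenase Hmox1, which opens the haem ring, and the quinone reductase Nqo1. In the brain the response is known best from astrocytes and from macrophages that clear red cells and haem.

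The antioxidant response element was searched for as its core letters TGACNNNGC, on both strands, in windows of 300 bases around gene starts from RefSeq on GRCm38.p6 (250 bases before to 50 after the start). Windows were given for 8 of the 10 genes, that is for all but Hmox1 and Gclc. These 8 genes had 10 windows, of which 5 held the core, 1 each in 5 genes, as did 12.4% of all 32851 windows (10.2% hold it before the start). The 4 matches that lie before the start are printed below on the gene's own strand, to show what the element looks like in these genes. Capitals mark the core, which reads GCNNNGTCA where it lies on the opposite strand. They are from Nfe2l2 (chr2:75704875-75704913, reverse strand), Gclm (chr3:122245403-122245451, forward), Prdx1 (chr4:116685446-116685494, forward) and Txnrd1 (chr10:82859094-82859142, forward).
Nfe2l2: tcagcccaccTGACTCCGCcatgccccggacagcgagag
Gclm: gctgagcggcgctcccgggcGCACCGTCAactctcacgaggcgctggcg
Prdx1: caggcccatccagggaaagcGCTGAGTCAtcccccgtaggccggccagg
Txnrd1: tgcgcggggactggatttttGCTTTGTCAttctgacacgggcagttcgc
The match in Prdx1 overlaps the letters TGAGTCA of the AP-1 motif, which the other 3 do not. Between 83 and 231 bases lie between these cores and the start of the window's transcript, which for Txnrd1 is a start inside the gene, not its outermost one. A match of letters is a description of the sequence, and binding of NRF2 was not measured.

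The libraries held 66658 barcodes and between 17550806 and 64215050 unique molecular identifiers (UMIs) each. After filters 58192 cells were left, of which 13601 were gated as microglia, 144 as macrophages, 38065 as EC, 2112 as SMC and 534 as pericytes. Levels are given as CPM, that is UMIs of the gene per 1000000 UMIs of all gated cells of the type in 1 mouse, and the mouse is the replicate. UMIs were counted at transcript ends and not per length, so levels are compared between cells for 1 gene and not between genes. Macrophages were few. The 8 mice with at least 10 of them are used (R182C-TgN3 mice 1, 2, 3 and 6 and WT-TgN3 mice 2 to 5), and pericytes are used from the 10 mice with at least 20, without WT-TgN3 mouse 5. The gated types carried their own markers. Summed microglial markers in EC reached 0.873% of their level in microglia, summed EC markers in microglia 0.941% of their level in EC, and macrophage markers in the other 4 types at most 0.328% of their level in macrophages. Macrophages held microglial markers at 14.7% of the microglial level, with Cx3cr1 the most abundant, and pericytes held EC markers at 5.5% and SMC markers at 4.47%. The libraries shared 966 barcode sequences, which touched 1449 kept cells. The part of these shared markers and barcodes in the levels below was not tested.

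Nfe2l2 (ENSMUSG00000015839, mm10 chromosome 2 from 75675513 to 75704641, reverse strand), which encodes NRF2, was highest in microglia. Its mean level was 427 ± 53.3 CPM (SD, n = 11) in microglia, 319 ± 92.9 CPM (SD, n = 8) in macrophages, 125 ± 7.92 CPM (SD, n = 11) in EC, 72.3 ± 22.3 CPM (SD, n = 10) in pericytes and 38.9 ± 8.32 CPM (SD, n = 11) in SMC. In R182C-TgN3 microglia the lowest, median and highest mouse had 397, 416 and 492 CPM, and WT-TgN3 mice 1 to 5 had 459, 479, 365, 509 and 340 CPM. In EC the 11 mice lay between 110 and 135 CPM, so the ranges of EC and microglia were far apart. Neighbours in the order of mean levels were compared within mice by a 2-sided exact sign-flip permutation test of log2(CPM + 1), 40 comparisons over the 10 genes, adjusted by the Benjamini-Hochberg method. Microglia and macrophages did not differ beyond their spread (higher in microglia in 6 of 8 mice, exact p = 0.0781, adjusted p = 0.164). The steps from macrophages to EC (8 of 8 mice, exact p = 0.00781, adjusted p = 0.024), from EC to pericytes (10 of 10 mice, exact p = 0.00195, adjusted p = 0.0071) and from pericytes to SMC (9 of 10 mice, exact p = 0.00977, adjusted p = 0.0279) were past the threshold of 0.05. The last of these depended on the scaling, and in the joint fit of all types described below it was 0.35 ± 0.16 (log2, SE; edgeR adjusted p = 0.0662). With each cell thinned to 2000 UMIs, a UMI of Nfe2l2 was found in 53.4% of microglia, 21% of EC and 6.43% of SMC (76.8%, 45.2% and 23.7% without thinning). Nfe2l2 is widely expressed, so none of these types gives a share for free RNA.

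Keap1 (ENSMUSG00000003308, chromosome 9 from 21229730 to 21239361, reverse strand), the sensor that holds NRF2, varied the least between cell types, with its lowest mean 1.66-fold below its highest. It had 46.4 ± 4.4 CPM (SD, n = 11) in EC and between 28 and 33.1 CPM in the other 4 types. None of its 4 steps in the order passed the test (the lowest adjusted p was 0.213, for EC above macrophages, where 2 of 8 macrophage sums held no Keap1 UMI). Read in the joint fit of all types, microglia were below EC by 0.72 ± 0.07 (log2, SE; edgeR adjusted p = 2.59e-14), so the 2 regulators went opposite ways between these cells. The antisense gene Gm16754 overlaps Keap1 and is counted separately.

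**Figure D1:**
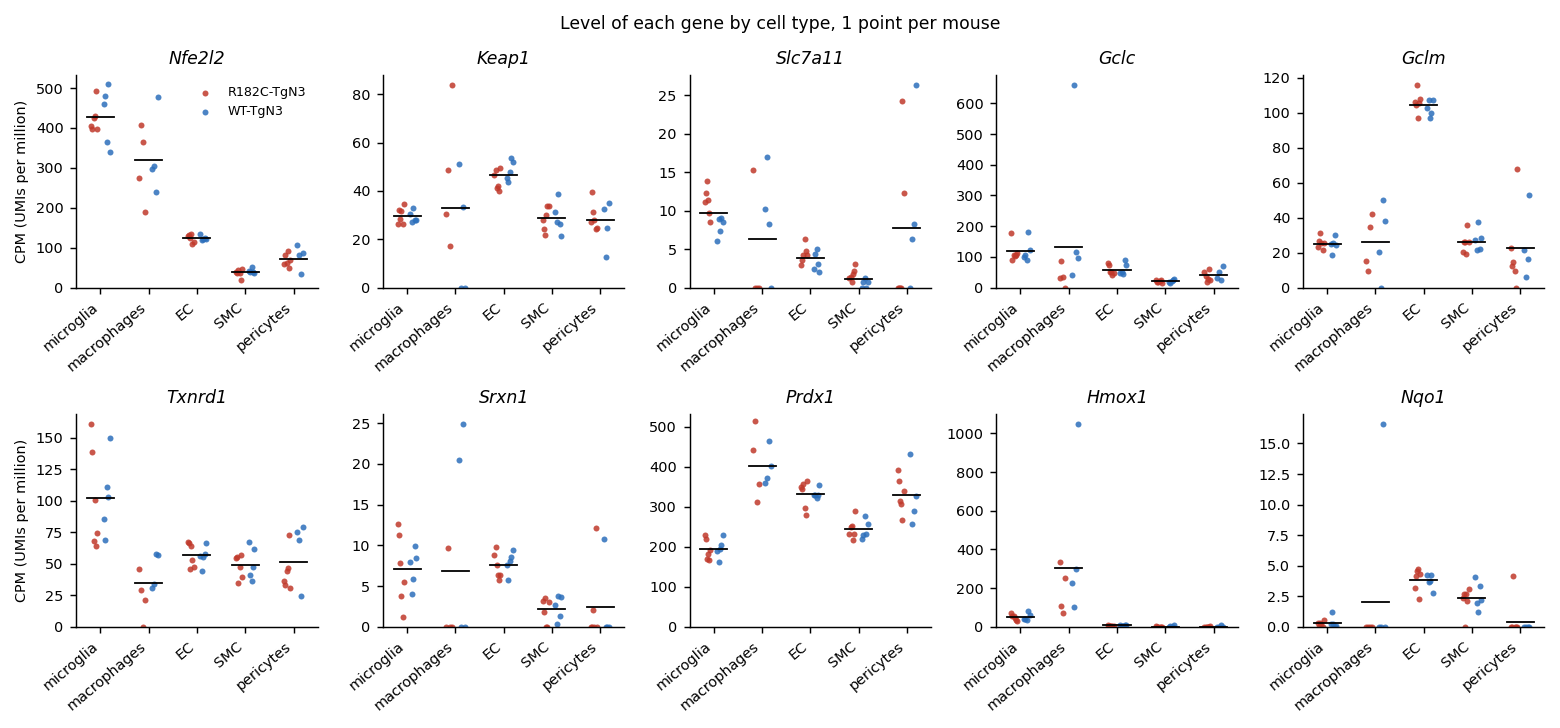
Levels of the 10 genes in 5 cell types. Each panel is 1 gene, with its own vertical axis in CPM (UMIs per 1000000 UMIs of the cells of that type) starting at 0. Points are mice (red R182C-TgN3, blue WT-TgN3) and black bars are means over mice. Nfe2l2 falls from 427 CPM in microglia to 38.9 in SMC, Gclm stands out in EC at 105 CPM, and Hmox1 in macrophages spreads from 69.4 to 1048 CPM.

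The genes of glutathione synthesis did not share 1 order of cell types. Slc7a11 (ENSMUSG00000027737, chromosome 3 from 49892526 to 50443614, reverse strand), the cystine importer, was low everywhere, with 9.72 ± 2.27 CPM (SD, n = 11) in microglia, 3.91 ± 1.25 CPM (SD, n = 11) in EC and 1.18 ± 0.906 CPM (SD, n = 11) in SMC. It rested on 4 UMIs in all macrophages, 9 in all pericytes and 18 in all SMC. Of its steps only that from EC to SMC passed the test (11 of 11 mice, exact p = 0.000977, adjusted p = 0.00488). That exact p is the smallest 11 mice can give. Slc7a11 did not pass the low-count filter in SMC alone, so the step is a description of few UMIs. Gclc (ENSMUSG00000032350, chromosome 9 from 77754535 to 77794485, forward strand), the catalytic subunit, had 118 ± 32.4 CPM (SD, n = 11) in microglia, 58.6 ± 16.8 CPM in EC, 39.6 ± 17.3 CPM (SD, n = 10) in pericytes and 20.9 ± 3.86 CPM (SD, n = 11) in SMC, and each of these 3 steps passed on the CPM scale (adjusted p from 0.00488 to 0.0365). In the joint fit Gclc in pericytes against SMC was at 0.40 ± 0.35 (log2, SE), from 66 UMIs in all pericytes. Gclc did not pass the low-count filter in pericytes alone, so that value is a description and no test. The same holds for both CPM steps that involve pericytes, from EC and to SMC, which describe few UMIs. Its mean in macrophages, 133 CPM, was raised by 1 cell. WT-TgN3 mouse 3 had 661 CPM there, and 36 of its 39 Gclc UMIs were in a single cell of 5624 UMIs. Without that cell the same mouse had 56.2 CPM, and the other 7 mice lay between 0 and 116 CPM. Macrophages were above microglia in 1 of 8 mice.

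Gclm (ENSMUSG00000028124, chromosome 3 from 122245557 to 122270732, forward strand), the modifier subunit of the same enzyme, was an endothelial transcript among these cells. EC had 105 ± 5.43 CPM (SD, n = 11), with the lowest mouse at 96.8 and the highest at 116 CPM, and it was the most even level of any of the 10 genes in any type (CV 5.19% over mice). SMC had 26.3 ± 5.89 CPM, macrophages 26.3 ± 17.4 CPM (SD, n = 8), microglia 25.2 ± 3.44 CPM and pericytes 22.4 ± 21.4 CPM (SD, n = 10). Only the step from EC to SMC passed the test (11 of 11 mice, exact p = 0.000977, adjusted p = 0.00488). The 2 subunits were also read as a ratio inside each mouse, which was chosen after the levels were seen and restates them, so it is given as a description without a test. There were 4.73 ± 1.32 Gclc UMIs per Gclm UMI in microglia (lowest 3.34, highest 7.62), 0.562 ± 0.167 in EC (0.374 to 0.9) and 0.824 ± 0.211 in SMC (0.567 to 1.14), all n = 11 mice with SD. The ratio was 8.45-fold higher in microglia than in EC of the same mice, a difference of 3.08 ± 0.41 (log2, SD), and higher in 11 of 11 mice. SMC were above EC by 0.56 ± 0.3 (log2, SD), also in 11 of 11 mice. The ratio depends on how well each transcript end is captured, and use of other transcript ends between cell types was not tested. Gm17494 overlaps Gclm on the other strand and is counted separately.

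**Figure D2:**
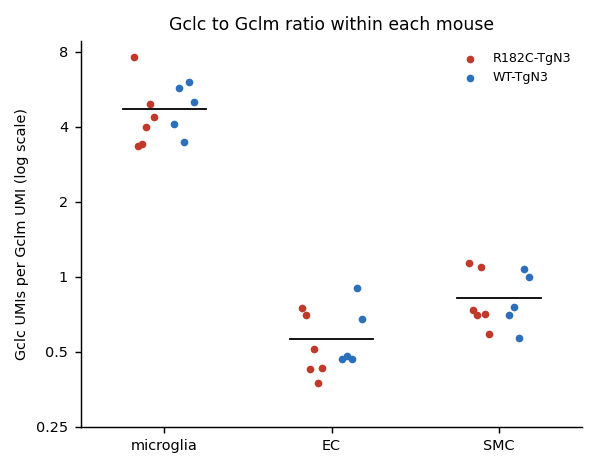
Gclc UMIs per Gclm UMI in microglia, EC and SMC. The vertical axis is a log scale, points are mice (red R182C-TgN3, blue WT-TgN3) and black bars are means over 11 mice. Microglia lie between 3.34 and 7.62, and all mice of EC and SMC lie below them, at 0.374 to 1.14.

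The thioredoxin arm split as well. Txnrd1 (ENSMUSG00000020250, chromosome 10 from 82833951 to 82897712, forward strand), which reduces thioredoxin with NADPH, had 102 ± 34.4 CPM (SD, n = 11) in microglia and 56.8 ± 8.57 CPM in EC (11 of 11 mice, exact p = 0.000977, adjusted p = 0.00488). EC, pericytes and SMC lay between 49.4 and 56.8 CPM and did not differ beyond their spread. Prdx1 (ENSMUSG00000028691, chromosome 4 from 116685544 to 116700822, forward strand), which removes hydrogen peroxide, ran the other way. It was lowest in microglia at 194 ± 23.8 CPM (SD, n = 11), higher in SMC at 244 ± 23.5 CPM (11 of 11 mice, exact p = 0.000977, adjusted p = 0.00488) and higher again in pericytes at 328 ± 55 CPM (SD, n = 10; 10 of 10 mice, exact p = 0.00195, adjusted p = 0.0071). That last step was found on the CPM scale only. The joint fit had pericytes against SMC at −0.07 ± 0.09 (log2, SE; edgeR adjusted p = 0.703), between −0.10 and −0.0028 as each mouse was left out. Pericytes, EC at 332 ± 25.7 CPM and macrophages at 403 ± 66.4 CPM (SD, n = 8) were not told apart. Srxn1 (ENSMUSG00000032802, chromosome 2 from 152105516 to 152111376, forward strand), which repairs overoxidized peroxiredoxins, had 7.63 ± 1.44 CPM in EC, 7.12 ± 3.45 CPM in microglia and 2.14 ± 1.49 CPM in SMC (n = 11 each), and none of its 4 neighbouring steps passed. Eid3 lies inside Txnrd1 on the same strand, and reads from it cannot be told apart where they share sequence.

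Hmox1 (ENSMUSG00000005413, chromosome 8 from 75093621 to 75100589, forward strand), the stress-induced haem oxygenase, had the widest range. Its levels in macrophages were 335, 107, 69.4 and 252 CPM in R182C-TgN3 mice 1, 2, 3 and 6, and 226, 102, 299 and 1048 CPM in WT-TgN3 mice 2 to 5. The macrophage levels were above the microglial level of the same mouse in 8 of 8 mice (exact p = 0.00781, adjusted p = 0.024). In WT-TgN3 mouse 5, 41 of 55 UMIs came from 1 of the 10 macrophages, and without that cell its level was 348 CPM. With the cell of most Hmox1 UMIs left out in every mouse, a choice that tends to lower a level, macrophages averaged 157 ± 102 CPM (SD, n = 8). They were then above microglia in 7 of 8 mice. Microglia had 51 ± 15.9 CPM (SD, n = 11), EC 7.4 ± 0.98 CPM and SMC 2 ± 1.99 CPM, and both steps passed in 11 of 11 mice (exact p = 0.000977, adjusted p = 0.00488 each). SMC, where Hmox1 did not pass the low-count filter alone, had 38 UMIs in all, and pericytes had 2. The mean level was 16.8% of that of macrophages in microglia and 2.43% in EC, while summed macrophage markers were at 0.137% and 0.106% there. In thinned cells 23.9% of macrophages, 8.34% of microglia, 1.26% of EC, 0.159% of SMC and 0.244% of pericytes held an Hmox1 UMI. Macrophages, microglia and EC followed the order of the CPM, while SMC and pericytes, with few UMIs, did not. Without thinning the shares were 38.2%, 16.9%, 4.41%, 1.45% and 0.421%. Median depths before thinning were 8070 UMIs in SMC, 5080 in microglia and 3235 in pericytes. How much of the SMC and pericyte shares is free RNA was not tested.

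Nqo1 (ENSMUSG00000003849, chromosome 8 from 107388225 to 107403206, reverse strand), the quinone reductase often used as a readout of NRF2, was nearly missing. EC had 3.8 ± 0.769 CPM (SD, n = 11) and SMC 2.35 ± 1.08 CPM from 44 UMIs, a step found on the CPM scale in 11 of 11 mice (exact p = 0.000977, adjusted p = 0.00488). In the joint fit SMC against EC lay at −0.44 ± 0.26 (log2, SE), and Nqo1 did not pass the low-count filter in SMC alone, so the step is a description of few UMIs. Microglia held 20 Nqo1 UMIs in all 11 mice, against 969 in EC, and had 0.299 ± 0.358 CPM. Of the 11 microglial sums 3 held none. Macrophages and pericytes held 2 UMIs each. Microglia, with the highest mean of Nfe2l2, had the lowest of Nqo1 among the types with more than 2 UMIs.

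Cell types of the same mice were also compared for all genes at once, in 1 edgeR quasi-likelihood fit with the mouse as a block and p-values adjusted over 12679 genes. A gene can pass the low-count filter of this fit through the types where it is high, and its difference from a type where it is low is then partly set by the filter. This holds for members that did not pass in the genotype fits of 1 type alone, which were Nqo1 in microglia, Slc7a11, Srxn1, Hmox1 and Nqo1 in SMC, all but Nfe2l2, Hmox1 and Prdx1 in macrophages, and all but Nfe2l2 and Prdx1 in pericytes. Their values are given as a description of the sums, with no test. In microglia against EC, Hmox1 was higher by 2.69 ± 0.12 (log2, SE; edgeR adjusted p = 3.08e-26), Nfe2l2 by 1.70 ± 0.08, Slc7a11 by 1.30 ± 0.15, Gclc by 0.94 ± 0.12 and Txnrd1 by 0.75 ± 0.08. Gclm was lower by −2.13 ± 0.08 (log2, SE; edgeR adjusted p = 1.96e-29), Prdx1 by −0.85 ± 0.07 and Keap1 by −0.72 ± 0.07. Of the 9 members that passed the filter in both types alone, 5 were thus higher and 3 lower, where of the 10478 genes that did so 37.8% were higher and 48.5% lower (34.3% and 51.5% of all genes in the fit, whose median was −0.28). Nqo1, which passed through EC, lay at −3.72 ± 0.27. Srxn1 was not past the threshold (−0.18 ± 0.14, edgeR adjusted p = 0.206), but it was without R182C-TgN3 mouse 1 (adjusted p = 0.0185) or mouse 2 (adjusted p = 0.0437).

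In SMC against EC, 35% of all genes were higher and 36.7% lower (42% and 32.3% of the 8733 that passed in both types alone), and the median of all genes was −0.04. Of the members that also passed the filter in SMC alone, Gclm was lower by −1.81 ± 0.10 (log2, SE; edgeR adjusted p = 2.03e-22), Nfe2l2 by −1.41 ± 0.09, Gclc by −1.29 ± 0.17, Keap1 by −0.48 ± 0.08 and Prdx1 by −0.19 ± 0.07. The members that passed through the other types lay at −1.72 ± 0.26 (Srxn1), −1.64 ± 0.32 (Hmox1), −1.62 ± 0.36 (Slc7a11) and −0.44 ± 0.26 (Nqo1). Prdx1 (edgeR adjusted p = 0.0121) lost its call in several alternatives, and without R182C-TgN3 mouse 1 (adjusted p = 0.0669), WT-TgN3 mouse 2 (adjusted p = 0.0524) or WT-TgN3 mouse 4 (adjusted p = 0.0626). Txnrd1 was level between the 2 types at 0.01 ± 0.10 (edgeR adjusted p = 0.907).

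Macrophages against microglia depended on the scaling. With TMM factors the median of all genes stood at −0.32, with 1122 genes higher (8.85%) and 2328 lower (18.4%). With DESeq2's size factors in the same test it stood at −0.04, with 1524 higher and 1415 lower. Relative to those medians, Hmox1 was higher by 2.51 and 2.51 and Prdx1 by 1.17 and 1.18, and both passed under both scalings (largest edgeR adjusted p = 3.34e-09). Nfe2l2, the only other member that passed the filter in macrophages alone, was at −0.29 relative to either median. Its call as lower with TMM (−0.61 ± 0.13, edgeR adjusted p = 0.000157) was lost with the size factors (adjusted p = 0.0688). Of the 858 genes that passed in both types alone, 27.2% were higher and 43% lower with TMM. The other 7 members are described only. Txnrd1, with 22 UMIs in the macrophages of 8 mice, lay at −1.37 and −1.36 relative to the medians. Gclc lay at −0.19 ± 0.30 with TMM, and at −1.18 without WT-TgN3 mouse 3, which holds the cell of 36 Gclc UMIs. With at least 20 macrophages only WT-TgN3 mouse 2 was left, where Prdx1 was at 0.63, a value of 1 library with no replicate.

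In pericytes against SMC, 2 members passed the filter in both types alone, and neither was called. Nfe2l2 was at 0.35 ± 0.16 (log2, SE; edgeR adjusted p = 0.0662) and Prdx1 at −0.07 ± 0.09 (adjusted p = 0.703), where 17.1% of all genes were higher and 25.2% lower (29.1% and 38.2% of the 2843 that passed in both). On the CPM scale both were higher in pericytes, as given above. With DESeq2's size factors 2977 genes were higher and 2374 lower in place of 2170 and 3191, and Nfe2l2 was called higher in pericytes, by 0.56 (edgeR adjusted p = 0.00401), as it was in several other alternatives and without R182C-TgN3 mouse 6 or WT-TgN3 mouse 3 (adjusted p = 0.0459 and 0.0193). This is the side on which 9 of 10 mice lay in the CPM. The other 8 members are described only. Gclm, with 39 UMIs in all pericytes, lay at −0.75 ± 0.25, and at 0.085 with pericytes taken from clusters. Txnrd1, with 86 UMIs, lay at −0.48 ± 0.20, and its CPM was higher in pericytes in 5 of 10 mice. Of the 13 genes of a dissociation stress list (14 genes, with Fos, Jun, heat shock genes and others) that passed in both types alone, 12 were lower in pericytes, with a median of −3.12, and its part in the members' values was not tested.

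**Figure D3:**
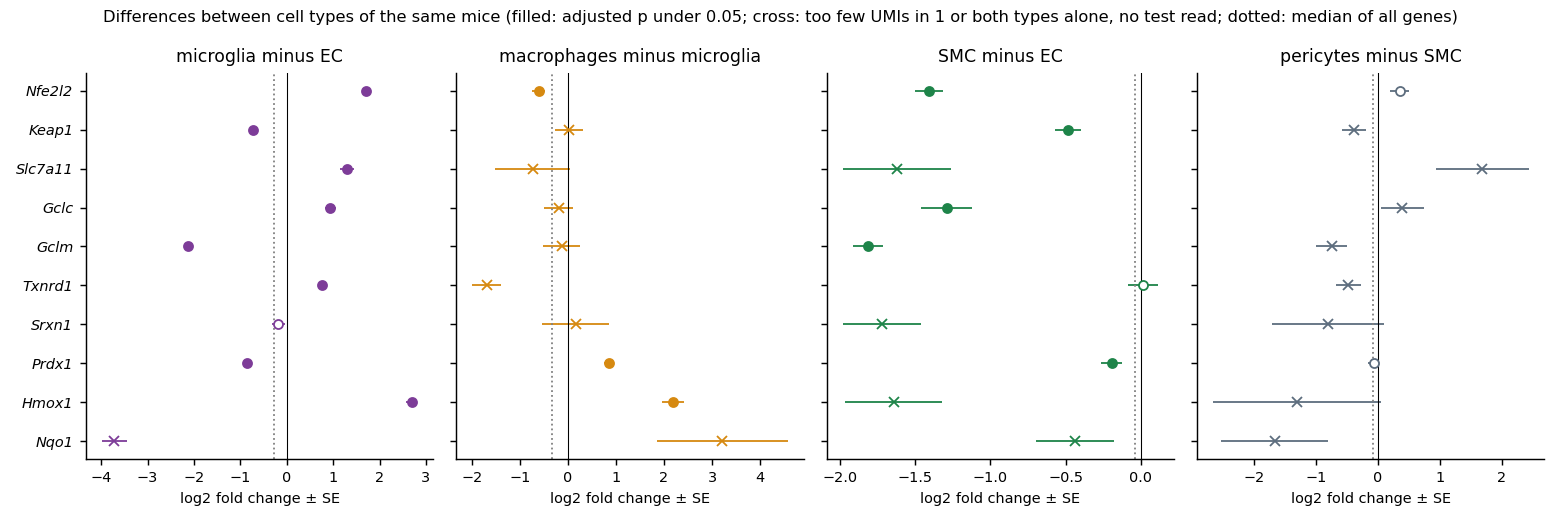
Differences of the 10 genes between cell types of the same mice. The horizontal axis of each panel is the log2 fold change with its SE from edgeR, filled points have an adjusted p under 0.05, crosses are genes that did not pass the low-count filter in 1 or both types alone and are not read as tested, and the dotted line is the median of all genes. Gclc and Gclm lie on opposite sides of 0 in microglia minus EC (0.94 and −2.13), and Gclm lies at −1.81 in SMC minus EC.

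Other genes of the pathway, grouped by function, were read in the same contrasts. Calls are counted over the genes that passed the low-count filter in both types alone, to be held against the shares of all such genes given above (37.8% higher and 48.5% lower in microglia than in EC, 27.2% and 43% in macrophages than in microglia, 42% and 32.3% in SMC than in EC), and genes that passed only through other types are given as levels. All 11 regulators and partners of NRF2 passed in microglia and EC, and 6 were higher and 3 lower in microglia. Mafg, a small MAF partner, was higher by 1.73 ± 0.06 (log2, SE; edgeR adjusted p = 2.05e-31) and Sqstm1, which draws KEAP1 into autophagy, by 1.21 ± 0.09, while the NRF2 relative Nfe2l1 was lower by −1.85 ± 0.08. Of 12 glutathione genes (of 13), 11 were lower and 1 was higher in microglia than in EC, with the glutathione transferase Gsta4 at −6.58 ± 0.15. Its relative Mgst1 had 0.49 ± 0.305 CPM in microglia and 46.3 ± 8.56 CPM in EC (SD, n = 11). In SMC against EC 10 of the 13 passed, of which 5 were lower and 3 higher, Mgst3 by 1.85 ± 0.08. In macrophages 3 of the 13 passed, too few to describe the list there, and Mgst1 had 22.9 ± 17.4 CPM (SD, n = 8) from 16 UMIs.

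Among 9 thioredoxins and peroxiredoxins, 4 were higher and 5 lower in microglia than in EC, with Txn1, the substrate of Txnrd1, lower by −2.79 ± 0.07 (log2, SE; edgeR adjusted p = 1.74e-36) and Sesn2 higher by 2.06 ± 0.10. Of 5 genes that supply NADPH (of 6), 3 were higher in microglia and 1 lower, and Pgd and G6pdx of the pentose phosphate pathway were higher by 1.33 ± 0.08 and 0.99 ± 0.10. The malic enzyme Me1 had 0.391 ± 0.295 CPM in microglia and 5.06 ± 1.36 CPM in EC (SD, n = 11). Of 6 haem and iron genes, 4 passed in macrophages and microglia, and all 4 were higher in macrophages. Blvrb, a reductase of flavins, was higher by 2.91 ± 0.14 (edgeR adjusted p = 2.12e-23). Slc40a1, the iron exporter ferroportin, was lower in SMC than in EC by −5.26 ± 0.21. Of 10 genes of detoxification, oxidant removal and efflux (of 11), 8 were lower in microglia than in EC and 2 were higher, with the exporter Abcc1 at 1.50 ± 0.09. The aldehyde oxidase Aox1 had 0.12 ± 0.175 CPM in microglia and 11.6 ± 2.07 CPM in EC (SD, n = 11). For comparison, 8 of 14 dissociation stress genes were higher and 1 lower in microglia than in EC (median 0.54 against −0.15 for all genes that passed in both), and 11 were higher and none lower in SMC than in EC.

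Across all 51 sums of a mouse and cell type, genes whose log2(CPM + 1) was among the most like that of Nfe2l2, of 9801 genes with a mean of at least 10 CPM, were Tmcc3 (Pearson r = 0.954) and Lyn (0.954). Most like Hmox1 were Ptpn18 (0.924), Lyz2 (0.923) and P2rx7 (0.922). Slc7a11 had no close match, with A930007I19Rik at 0.695, Smad2 at 0.677 and Mapk1ip1l at 0.664. These values describe the pattern over cell types, which share libraries and differ in depth.

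The genotypes were compared in each cell type on its own, the question being whether the CADASIL variant of NOTCH3 was accompanied by a change of the response. The transgene itself was read first. Human NOTCH3 had 196, 250, 265, 209, 203 and 360 CPM in SMC of R182C-TgN3 mice 1 to 6 and 16.2, 61.7, 16.3, 70.7 and 37 CPM in SMC of WT-TgN3 mice 1 to 5, so the lines differed in how much transgene mRNA they carried as well as in the variant, which counts do not show. It was higher in R182C-TgN3 mice by 2.47 ± 0.27 (log2, SE; edgeR adjusted p = 0.000217) in SMC and by 1.49 ± 0.19 (adjusted p = 0.000119) in pericytes. The study left 1 control sample out of its microglial part because its microglia were highly polarized. All 5 WT-TgN3 mice are used here. Among the 10 genes of the response, no member passed the threshold in any of the 5 types by edgeR or by DESeq2 among genes past the filter on low counts. Without that filter Gclc was called in macrophages, lower in R182C-TgN3 mice by −2.06 ± 0.49 (log2, SE; edgeR adjusted p = 0.0488, 7 genes called), and that value holds the cell of WT-TgN3 mouse 3 with 36 Gclc UMIs. In EC all 10 members were tested, and Nfe2l2 differed by 0.04 ± 0.07 (log2, SE, R182C-TgN3 minus WT-TgN3), Keap1 by −0.06 ± 0.08, Gclm by 0.09 ± 0.08, Prdx1 by 0.05 ± 0.10 and Hmox1 by 0.08 ± 0.12, with edgeR adjusted p = 1.00 for all. The background was as empty, with 0% of 13126 genes called in EC, 0% of 10970 in microglia, 0% of 870 in macrophages, 0.0113% (1 gene) in SMC and 0.0344% (1 gene) in pericytes, in both cases the transgene. At an unadjusted p under 0.05 there were 209 genes in EC, 149 in microglia and 30 in macrophages, and DESeq2 also called none in these 3. Of the members, only Slc7a11 in microglia was under 0.05 unadjusted. With mice paired by age and by the number in their labels as a replicate block, microglia had 4 genes called, all lower and none of them a member. They were Gh, Prl and Cga, which encode pituitary hormones, and the noncoding Meg3, named after their values were seen.

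Slc7a11 in microglia had a lowest, median and highest level of 8.57, 11.3 and 13.8 CPM in R182C-TgN3 mice, and 6.11, 8.93, 7.33, 9.07 and 8.49 CPM in WT-TgN3 mice 1 to 5. The groups overlapped by 1 R182C-TgN3 mouse (mouse 6), and within batches 1, 3 and 4 each R182C-TgN3 mouse was above each WT-TgN3 mouse. The fitted difference was 0.53 ± 0.16 (log2, SE; edgeR adjusted p = 1.00), so it failed the correction. It was 0.45 ± 0.15 with batch as a covariate and 0.46 ± 0.16 with the replicate block, and lay between 0.45 and 0.59 as each mouse was left out, with no call. In EC the same gene had 4.36 ± 1.14 CPM (SD, n = 6) in R182C-TgN3 mice and 3.38 ± 1.29 CPM (SD, n = 5) in WT-TgN3 mice, a difference of 0.40 ± 0.26. Hmox1 in macrophages, with 191 ± 124 and 419 ± 428 CPM (SD, n = 4 each), differed by −1.02 ± 0.58 (edgeR adjusted p = 0.99). It was the member of largest fitted difference, and it lay between −1.46 and −0.21 as each mouse was left out. The value includes the 1 cell of WT-TgN3 mouse 5, whose part in it was not tested. In macrophages 3 members passed the filter on low counts, in pericytes 2, in SMC 6 and in microglia 9, and the others were not tested. None of the lists of pathway genes had a gene past the threshold in any type. The 2 most abundant haem and iron genes, the ferritin subunits Fth1 and Ftl1, differed by 0.20 ± 0.14 and 0.11 ± 0.19 in microglia and by 0.29 ± 0.17 and 0.15 ± 0.13 in EC, and the glutathione peroxidase Gpx4 by 0.25 ± 0.15 in microglia and 0.13 ± 0.11 in EC. Dissociation stress genes had a median of 0.03 in microglia and 0.17 in EC, with none called.

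**Figure D4:**
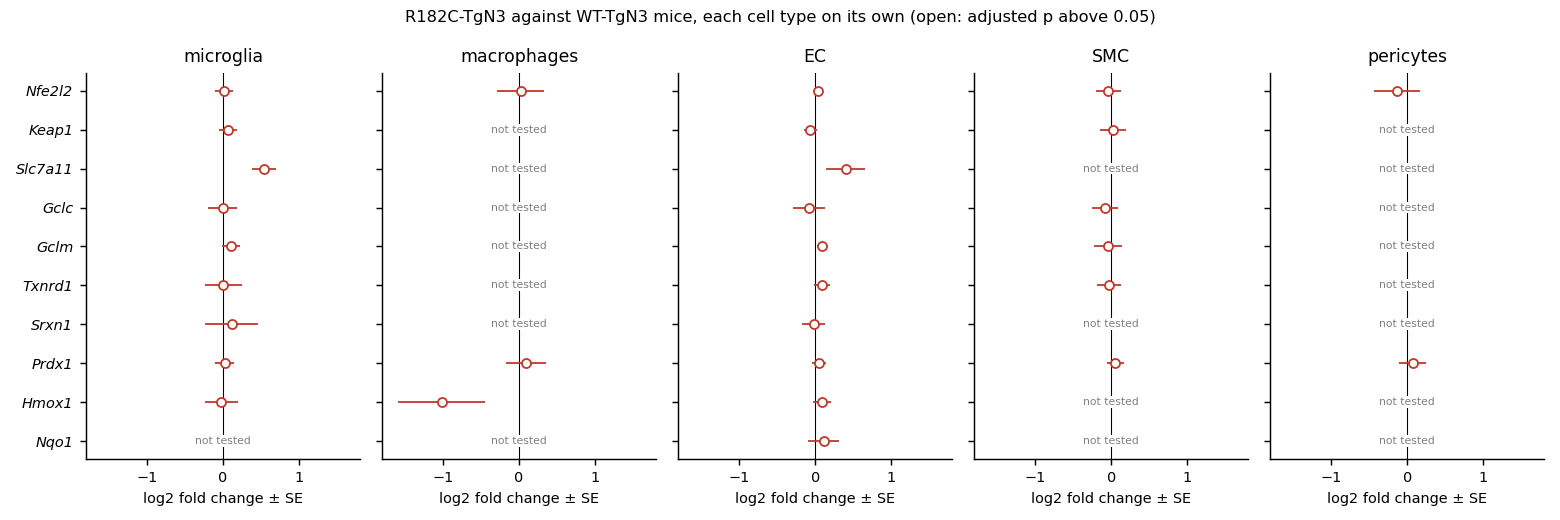
Differences between R182C-TgN3 and WT-TgN3 mice for the 10 genes in 5 cell types. The horizontal axis is the log2 fold change with its SE from edgeR, open points have an adjusted p above 0.05, and genes that did not pass the filter on low counts are named as not tested. All points are open, and the one farthest from 0 is Hmox1 in macrophages at −1.02.

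Age was compared with genotype as a covariate, so mice that the label numbers may pair within an age were counted as independent. In microglia 0.761% of 11298 genes were called between 9 and 6 months (86 genes, 34 higher), in EC 0.585% of 13513 (79 genes), in SMC 0.0537% (5 genes, named after their values were seen: the histone genes Hist1h4h, Hist1h1e and Hist1h4c, with Il31ra and Gstp1, all lower at 9 months), and in macrophages and pericytes 0% (0 genes by edgeR and by DESeq2, with 48 and 194 at an unadjusted p under 0.05). These counts rest on few mice, with 13 to 343 genes in microglia and 0 to 310 in EC as each mouse was left out. The called genes held 2 results of members, 1 in microglia and 1 in EC. Hmox1 in microglia was higher at 9 months by 0.79 ± 0.12 (log2, SE), which is 1.72-fold (edgeR adjusted p = 0.00889, with genotype as a covariate). The 9-month mice had 73.8, 57.2, 54.9, 80.5 and 61.7 CPM, and the 6-month mice 43.8, 35.5, 33, 40.9, 43.1 and 37.1 CPM, so the ages did not overlap. It was the only member without overlap of the ages in any type, and the share of all genes without overlap was not counted. The call held without each mouse in turn (adjusted p from 0.00123 to 0.0249). The 9-month mice include R182C-TgN3 mouse 3 of batch 2, which had 54.9 CPM, so both batches of that age lay above both of the other.

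Gclc in EC was higher at 9 months by 0.64 ± 0.12 (log2, SE), 1.56-fold (edgeR adjusted p = 0.0362). The 4 mice of batch 1 had 79.2, 73.2, 90 and 72.2 CPM, R182C-TgN3 mouse 3, alone in batch 2, had 49.4 CPM, and the 6 younger mice had between 39.5 and 51.7 CPM. The only 9-month mouse outside batch 1 thus lay among the 6-month mice. The call was lost without R182C-TgN3 mouse 1, 2, 4 or 5 or WT-TgN3 mouse 1, 3, 4 or 5 (adjusted p from 0.0784 to 0.123) and was stronger without R182C-TgN3 mouse 3 (0.72, adjusted p = 0.00845). Txnrd1 in microglia had 161, 139, 103 and 150 CPM in batch 1, 68.5 CPM in R182C-TgN3 mouse 3, and 64.1 to 111 CPM at 6 months, so that mouse 3 and 1 mouse of batch 1 lay among the younger mice (0.61 ± 0.20, edgeR adjusted p = 0.162, and adjusted p = 0.0196 without mouse 3). Srxn1 in microglia had 12.6, 11.3, 7.85, 9.95 and 8.4 CPM at 9 months and 3.81, 1.16, 5.52, 7.97, 4 and 5.82 CPM at 6 months, overlapping by 1 mouse (1.07 ± 0.26, edgeR adjusted p = 0.067, and adjusted p = 0.0342 without mouse 3).

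Srxn1 in EC had 8.84, 9.74, 7.56, 8.63 and 9.39 CPM at 9 months and 6.33, 5.73, 6.42, 7.53, 5.7 and 8.04 CPM at 6 months. The ages overlapped there by R182C-TgN3 mouse 3 and WT-TgN3 mouse 3, and the difference was 0.43 ± 0.10 (log2, SE; edgeR adjusted p = 0.0647, and adjusted p = 0.0108 by DESeq2). In microglia Srxn1 was also called by DESeq2 (adjusted p = 0.0114), with clusters (edgeR adjusted p = 0.0474) and without the low-count filter (adjusted p = 0.000629), and without that filter so were Txnrd1 (adjusted p = 0.00458) and Gclc (0.43, adjusted p = 0.0498, against 0.41 ± 0.16 and 0.226 with it).

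In microglia the median over the 9 members tested was 0.32, against 0.01 for all genes, and 6 of the 9 were under 0.05 unadjusted, as were 1588 of all 11298 genes. Nfe2l2 (−0.05 ± 0.12) and Keap1 (−0.09 ± 0.12) were the only 2 below 0. In EC the median of the members was 0.11, against −0.0047 for all genes. Slc7a11 in EC was at −0.57 ± 0.21 (edgeR adjusted p = 0.19), in microglia at 0.32 ± 0.15 (adjusted p = 0.324), and the difference between these was not tested. In SMC the member farthest from 0 was Keap1 at −0.40 ± 0.14 (edgeR adjusted p = 0.391), and in macrophages Hmox1 at 0.85 ± 0.55 (adjusted p = 0.989), which was 0.061 without WT-TgN3 mouse 5 and 1.81 without R182C-TgN3 mouse 6.

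Of the other pathway genes, Mafg was higher at 9 months in EC by 0.46 ± 0.08 (edgeR adjusted p = 0.0352) and Osgin1, an oxidative stress induced gene, by 0.98 ± 0.18 (adjusted p = 0.0362). Osgin1 had 6.13 ± 1.46 CPM (SD, n = 5) in EC at 9 months and 3.08 ± 0.361 CPM (SD, n = 6) at 6 months. Gstp1, a glutathione transferase with close copies in the mouse genome between which reads can be split, was lower at 9 months in microglia by −1.82 ± 0.28 (log2, SE; edgeR adjusted p = 0.00939), in EC by −1.69 ± 0.29 (adjusted p = 0.0339) and in SMC by −1.93 ± 0.30 (adjusted p = 0.00847). Its level in EC was 8.4 ± 3.5 CPM (SD, n = 5) at 9 months and 25.8 ± 12.6 CPM (SD, n = 6) at 6 months. As each mouse was left out in turn, the calls in EC held in 3 of 11 fits for Mafg (edgeR adjusted p up to 0.105), 4 of 11 for Osgin1 (up to 0.118) and 3 of 11 for Gstp1 (up to 0.0816), with the same direction in all. Gstp1 kept its call in 11 of 11 fits in microglia and in 10 of 11 in SMC, where it was lost without WT-TgN3 mouse 5 (adjusted p = 0.0503). Genes of the dissociation stress list are given beside these. Hspa1a, a heat shock gene, was the 1 gene of its 14 called in microglia, higher by 1.73 ± 0.30 (edgeR adjusted p = 0.017, and 0.0583 without R182C-TgN3 mouse 4), with 809, 129, 403, 327 and 372 CPM at 9 months and 96.1 to 157 CPM at 6 months. Summed over the list, of which Jun was the most abundant, microglia had 29353 ± 6096 CPM (SD, n = 5) at 9 months and 24253 ± 3995 CPM (SD, n = 6) at 6 months, and EC 15525 ± 2671 and 12588 ± 2571 CPM. The part of this list in the members' differences was not tested.

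**Figure D5:**
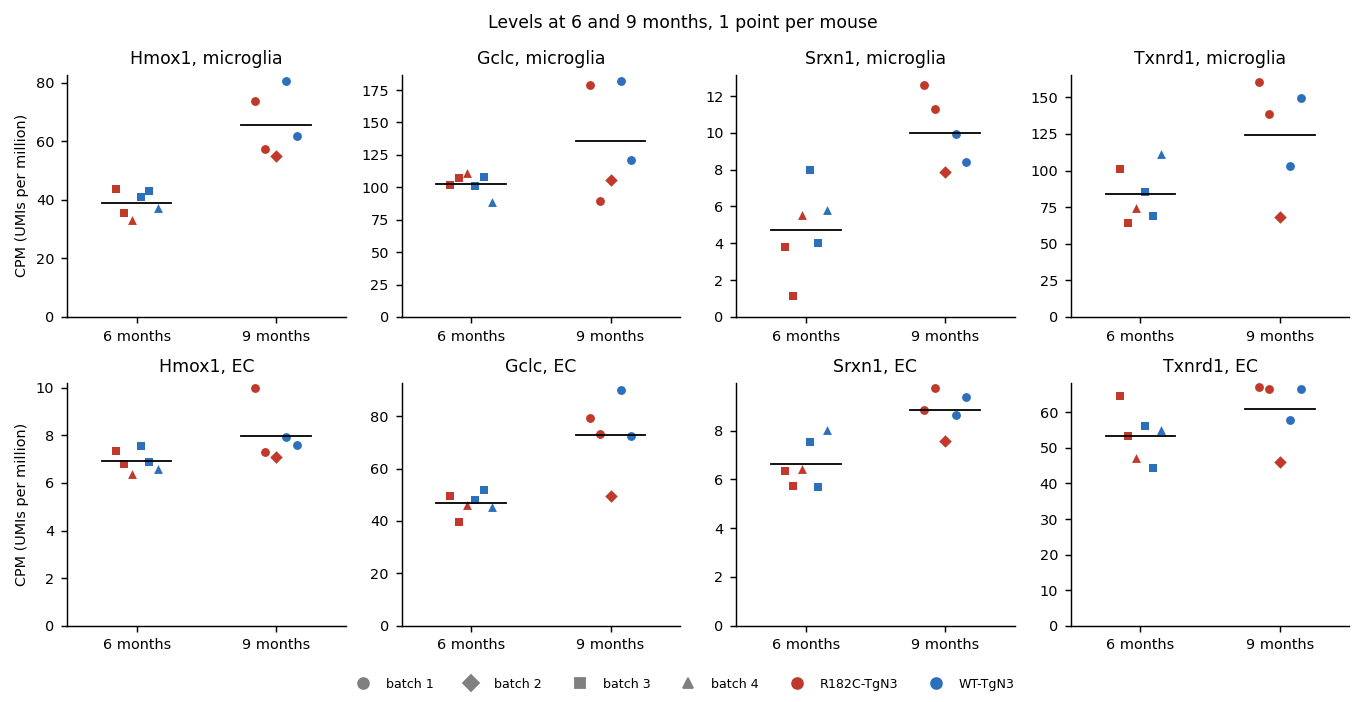
Levels of Hmox1, Gclc, Srxn1 and Txnrd1 at 6 and 9 months in microglia (upper row) and EC (lower row). Vertical axes are CPM from 0, points are mice (red R182C-TgN3, blue WT-TgN3), shapes are batches and black bars are means over mice. Hmox1 in microglia separates the ages (33 to 43.8 against 54.9 to 80.5 CPM), while the diamond of batch 2 lies with the 6-month mice for Gclc in EC at 49.4 CPM.

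Whether the genotype difference itself changed with age was tested as an interaction. No member passed in any type (lowest edgeR adjusted p of a member 0.563, in macrophages), and members at an unadjusted p under 0.05 were 2, both in macrophages. DESeq2 called no member either. Of all genes the interaction called 0% in microglia, macrophages, EC and SMC (296, 133, 278 and 217 genes at an unadjusted p under 0.05, and by DESeq2 1 in microglia, Mid1, and 2 in EC, Fabp4 and Hbb-y) and 0.0224% (1 gene, Id3) in pericytes.

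The study described a microglial subcluster marked by Polg2 and Nfe2l2. That subcluster was not rebuilt here. Microglia with and without a Polg2 UMI were compared inside each mouse after every cell had been thinned to 2000 UMIs, and cells chosen by 1 transcript of 1 gene are not the same cells as a cluster, so the values below are no measure of it. There were 558 cells with Polg2 (22 to 112 per mouse) and 11318 without. Nfe2l2 had 407 ± 83.5 CPM in cells with Polg2 and 436 ± 55.9 CPM in cells without (SD, n = 11), lower with Polg2 in 8 of 11 mice, and the fitted difference was −0.21 ± 0.09 (log2, SE; edgeR adjusted p = 0.409). With cells thinned to 1000 UMIs it was −0.51 (edgeR adjusted p = 0.0437). None of the 8 members tested passed, where 0.626% of 8633 genes did (54 genes by edgeR and 12 by DESeq2), and 1 of the 8 was under 0.05 unadjusted. Slc7a11 and Nqo1, with 6 and 0 UMIs in the cells with Polg2, were not tested. Of the pathway lists, Nfe2l3, an NRF2 relative that was used to choose the cells in an alternative, was higher by 1.71 ± 0.25 (edgeR adjusted p = 1.81e-08). The iron storage genes Ftl1 and Fth1 were lower by −0.36 ± 0.07 (adjusted p = 3.49e-05) and −0.29 ± 0.07 (adjusted p = 0.00584), and Gpx1 and Slc3a2 by −0.49 ± 0.12 and −0.44 ± 0.11. Of the dissociation stress list 6 of 14 were lower and none higher, with Fos at −0.38 ± 0.06, and its part in these differences was not tested.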

How the data were processed

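The authors had sequenced 3′ droplet libraries and counted UMIs per gene and barcode with Cell Ranger 7.0.0 on mm10 with human NOTCH3, and the deposited values are raw counts of 11 mice. Of 66658 barcodes, 61625 had 500 genes or more with no more than 10% of UMIs from mitochondrial genes. Of these 3433 scored as doublets against simulated ones (5.57%) were removed, scored in each library alone. A cell was given the type whose summed marker level, relative to that type's own level, was highest, if at least 3 of its markers had a UMI and no second type exceeded 0.5 of it. Ranking by level replaced the planned ranking by number of markers. Of the 58192 cells, 93.6% fell into the 5 types. UMIs were summed per mouse and type with at least 20 cells, or 10 for macrophages, since only 1 mouse reached 20 of these.

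Sums were tested in edgeR 4.0.16 (TMM, quasi-likelihood, Benjamini-Hochberg over all genes tested) without ribosomal, mitochondrial, Gm and Rik genes, and in DESeq2 1.42.0 as an alternative. Genotype fits had no covariate (sex and batch were alternatives), age fits had genotype, and cell type fits had the mouse as a block. Calls between cell types are read for genes that passed the low-count filter in the genotype fits of both types alone, a rule chosen after seeing the data. The SE of a log2 fold change was taken from the fold change and its F statistic, and p-values measure the spread between mice. Sums and exact tests were made with Python 3.11.15 and scipy 1.17.1, and fits with R 4.3.3. The tests were checked on simulated counts. Of 100 genes changed 2-fold, beside 100 changed 4-fold in the same counts, the genotype fits recovered from 38% (macrophages) to 86% (microglia). With so many genes changed the adjusted threshold is easier to pass than in the real genotype fits, where almost no gene was called. These shares thus do not give the recovery of a lone changed gene. The share counted as false lay between 4.4% (genotype in SMC) and 9.95% (microglia minus EC), with 7.58% for genotype in microglia. Alternatives (other filters, gates, Leiden clusters, normalization, covariates, blocks and mice left out) were run 1 at a time, and the closing section gives their effect.

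Mice paired by age and by the number in their labels (5 pairs) deviated together in microglia (r from 0.107 to 0.379), where every r was over 0.1. The mice of each pair also share age and batch, and deviations were taken from the genotype mean over both ages. These r thus cannot tell pairing by number from shared age or batch, and the replicate block assumes the pairing. In the other types some pairs fell short (r from −0.073 to 0.369 in EC, −0.094 to 0.125 in SMC, −0.064 to 0.051 in pericytes and −0.222 to 0.112 in macrophages). Genes named beside the 10 members are, from each list, the largest called changes in each direction (up to 2), or the 2 of highest mean level where none passed, and for Nfe2l2, Hmox1 and Slc7a11 the 3 genes of highest Pearson r over all sums. A gene that these rules would name is not reported here. The members, lists and comparisons were chosen with earlier results of these data known.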

Additional observations from a re-analysis of the deposited data

Results flagged for a closer look

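Dixon's 95% limit was applied to 98 groups of 4 to 6 mice of 1 genotype (10 genes in 5 cell types where such a group exists). In 18 of them a mouse lay farther from the others than the limit allows. For normally distributed values about 1 group in 20 does so by chance, but sums of few UMIs are not so distributed. Where 1 mouse has a UMI and the others none, the limit is passed by construction. The 18 groups thus cannot be held against that rate. Several rest on 1 to 11 UMIs. Nqo1 reached 16.6 CPM in macrophages of WT-TgN3 mouse 4 and 4.18 CPM in pericytes of R182C-TgN3 mouse 3 from 2 UMIs each, with no UMI in the other mice of their groups. Single UMIs gave Hmox1 in pericytes of R182C-TgN3 mouse 6 (6.18 CPM) and WT-TgN3 mouse 3 (8.25 CPM), Slc7a11 in macrophages of R182C-TgN3 mouse 1 (15.2 CPM), Srxn1 in macrophages of R182C-TgN3 mouse 2 (9.7 CPM) and Srxn1 in pericytes of R182C-TgN3 mouse 5 (12.1 CPM) and WT-TgN3 mouse 1 (10.8 CPM). Nqo1 in microglia of WT-TgN3 mouse 2 was at 1.23 CPM from 4 UMIs, and Nqo1 in SMC of R182C-TgN3 mouse 3 was at 0 CPM, with the next mouse at 2.1 CPM. Gclm in pericytes of R182C-TgN3 mouse 6 was at 68 CPM (11 UMIs) and Txnrd1 in pericytes of R182C-TgN3 mouse 5 at 72.7 CPM (6 UMIs).

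Hmox1 in SMC of WT-TgN3 mouse 5, at 7.39 CPM from 10 UMIs, stood beside 2.37 CPM in the next mouse, and the same mouse was the one with the highest Hmox1 in macrophages. Gclc in macrophages of WT-TgN3 mouse 3 was at 661 CPM, of whose 39 UMIs 36 were in 1 cell. In the large types, Nfe2l2 in microglia of R182C-TgN3 mouse 5 was at 492 CPM (next 429), Gclc in microglia of R182C-TgN3 mouse 1 at 179 CPM (next 111), Hmox1 in EC of R182C-TgN3 mouse 1 at 10.0 CPM (next 7.34) and Prdx1 in EC of WT-TgN3 mouse 5 at 353 CPM (next 329).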

How the results depend on the processing

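All results below are numbers of genes called at an adjusted p under 0.05 in place of those in the report. With the replicate block the genotype comparison called 4 genes in microglia, 2 in SMC and 6 in pericytes, and no member. Without the batch of 1 mouse age called 343 in microglia, 307 in EC, 18 in SMC and 4 in pericytes. DESeq2 called 217, 666 and 21 for age in microglia, EC and SMC, 1 and 2 for genotype by age in microglia and EC, and 12 in microglia with Polg2. Without the filter on low counts age called 505 in microglia, 207 in SMC, 1 in macrophages and 18 in pericytes, genotype 7 in macrophages and 24 in pericytes, and Polg2 221. With Leiden clusters age called 127 in EC, 9 in SMC and 2 in pericytes. Keeping doublets gave 2 for genotype in pericytes, sex as a covariate 7 for genotype by age in pericytes, and at least 20 macrophages, which leaves 1 macrophage library assumed to vary like the other types, 1036 in macrophages against microglia (chosen after seeing the data). Polg2 called 270 with cells thinned to 1000 UMIs and 103 with at least 2 of Polg2, Milr1 and Nfe2l3. Leaving out 1 mouse at a time, genotype called 0 to 1 genes in microglia, 0 in macrophages and EC, 1 in SMC and 1 to 2 in pericytes. Age called 13 to 343 in microglia, 0 to 310 in EC, 2 to 18 in SMC, 0 to 4 in pericytes and 0 in macrophages. Genotype by age called 0 to 4, 0 to 5, 0 to 7, 0 to 2 and 0 to 10 in microglia, macrophages, EC, SMC and pericytes, Polg2 23 to 45, and the cell type contrasts 10643 to 10789 (microglia minus EC), 2837 to 3484 (macrophages minus microglia), 8681 to 8966 (SMC minus EC) and 4858 to 5268 (pericytes minus SMC). The cause of these moves was not tested. Of members, Gclm in pericytes minus SMC turned to 0.085 with Leiden clusters, and the genotype results tested in the report kept their side of the threshold in all 416 alternatives and 319 fits without a mouse. For age, members gained a call in 8 alternatives and 2 fits without a mouse (Srxn1, Txnrd1 and Gclc in microglia, Srxn1 in EC) and lost one in 8 fits without a mouse (Gclc in EC). The 2 gains without a mouse were Srxn1 and Txnrd1 in microglia without R182C-TgN3 replicate 3. They repeat the alternative without the batch of 1 mouse, which is the same fit, and add nothing to it. The orders of cell types kept their calls with a pseudocount of 5 in all 40 steps. In the joint fit, whose scaling differs, the steps from pericytes to SMC for Nfe2l2 and Prdx1 were not called. Gclc, which did not pass the filter in pericytes alone, is described only. Of the fits without a mouse, 2 could not be made, genotype by age without R182C-TgN3 replicate 6 in macrophages and without WT-TgN3 replicate 4 in pericytes. Depth limits macrophages and pericytes, where 3 and 2 members could be tested between genotypes.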

Other observations

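Cells outside the 5 types were too few to compare between mice, and are given as 1 sum over all libraries with an exact 95% Poisson interval that covers counting error only. Named by their markers, they held the highest levels of several of the 10 genes. Slc7a11, the cystine importer, had 229 CPM in 95 fibroblast-like cells (336 UMIs, interval 205 to 255) and 30.8 CPM in 116 astrocyte-like cells, where the 5 types above had at most 9.72 CPM on average among those with more than 9 UMIs. Nqo1 had 46.8 CPM in 254 cells like choroid plexus epithelium (223 UMIs, interval 40.9 to 53.4), 23.2 CPM in astrocyte-like and 21.1 CPM in fibroblast-like cells. Gclc had 283 CPM in astrocyte-like cells (interval 258 to 309), which also held the highest Prdx1 of these 3 classes at 825 CPM, beside 572 CPM in fibroblast-like cells, and Gclm at 120 CPM. Hmox1 did not follow, at 8.71 CPM in astrocyte-like and 22.5 CPM in fibroblast-like cells. These sums have no replicate check.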
